A study of Mus musculus with 14 samples.

Results

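Cycling tumor cells were the mouse melanoma cells from blood and lung that held RNA of Mki67 and Top2a, and they were set against tumor cells of the same samples that held almost none. Of 450 DP and 43 CTC cells of tumor-bearing samples, 262 and 42 were taken as tumor cells, 304 in all, because the melanocyte genes Pmel, Dct, Tyrp1 and Mlana together reached 5000 CPM (counts scaled to a library of 1000000). The groups were chosen by the measured levels of Mki67 and Top2a. Of these 304 cells, 193 had a summed Mki67 and Top2a level of 50 CPM or more and were called cycling, 70 were below 5 CPM and were called non-cycling, and 41 lay between and entered neither group. The series held 648 cells of 14 samples, and the 304 tumor cells came from 8 of the 9 tumor-bearing samples.

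The tumor-bearing samples, numbered here 1 to 9, were female C57BL/6J mice of 6 to 8 weeks that had received fluorescent B16F10 cells, a cultured melanoma line of the same strain, and no drug. Single cells were sorted from blood and lung into the classes DP, CTC and WBC on markers of tumor and host that stay unnamed in the labels, and each cell was read with Smart-seq2, a plate method that makes a full-length library per cell. The samples PltLike, Duplike, CDP and naive WBC, labelled as naive C57BL/6J, and cultured B16F10 cells were controls with 1 sample each, and the labels do not spell out PltLike, Duplike or CDP. The labels do not say whether the tumor-bearing samples are separate animals, so p-values measure the spread between these samples, which may be technical.

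A dividing cell copies its DNA in S phase, doubles its histones and separates its chromosomes in mitosis. Cyclins and their kinases (CDKs) drive each step, E2F factors switch on the replication genes at the entry to S phase, and the retinoblastoma proteins hold E2F back in resting cells. Mki67 encodes the coat protein of mitotic chromosomes that pathologists stain as Ki-67, and Top2a encodes the topoisomerase that untangles replicated DNA. The RNA of both genes accumulates from S phase to mitosis, so a cell early in its cycle can hold little of either.

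Mki67 (chromosome 7, 135689784 to 135716361, GRCm38) and Top2a (chromosome 11, 98992943 to 99024189) chose the groups, so their levels are given as a description. Summed over the cells of a sample, Mki67 was at 103.5 to 279.5 CPM in cycling cells (median 220) and 0.158 to 0.614 CPM in non-cycling cells (median 0.304, 8 sums each). Top2a was at 357 to 613 CPM in cycling sums (median 413) and 0.353 to 1.23 CPM in non-cycling sums (median 0.684). In single cells the summed level had a median of 441 CPM in cycling cells, 22.5 CPM in cells between the thresholds and 1.12 CPM in non-cycling cells. At the upper threshold the nearest cells lay at 50.8, 50.9 and 51.0 CPM inside and at 47.6, 47.5 and 46.7 CPM outside. At the lower threshold they lay at 3.91, 3.54 and 3.40 CPM inside and at 5.30, 5.72 and 5.85 CPM outside. Of the cycling cells 5 had no Mki67 count and all had Top2a, and across the 304 tumor cells the 2 genes had a Spearman correlation of 0.70, which describes cells that share libraries and depth.

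The 4 selecting genes with Tyr, Mitf and Sox10, as 7 melanoma markers, summed to 15891 to 39293 CPM in cycling sums and 15875 to 46124 CPM in non-cycling sums. Ptprc, which encodes the leukocyte antigen CD45, had a median of 0.0677 CPM in cycling cells and 0.110 CPM in non-cycling cells, but it reached 5 CPM in 15 of 193 cycling cells (7.77%) and 9 of 70 non-cycling cells (12.9%). No doublet caller was run, so wells with a pair of cells were not removed.

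Above 50% of tumor cells were cycling in blood and among DP cells of lung, and fewer among the 15 CTC of lung. Of the 304 cells, 193 were cycling (63.5%, exact 95% binomial interval 57.8 to 68.9), and the interval, like those that follow, covers counting error only. The share was 56.2% in DP cells of lung (41 of 73, interval 44.1 to 67.8) and 66.7% in DP cells of blood (126 of 189, 59.5 to 73.3). CTC were cycling in 46.7% of lung cells (7 of 15, 21.3 to 73.4) and 70.4% of blood cells (19 of 27, 49.8 to 86.2). With each cell thinned to 1000000 counts the shares were 56.9%, 66.7%, 40% and 70.4%, in the same order of groups, with 1 DP cell of lung too shallow to enter.

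The cycling share varied between samples. Over all tumor cells of a sample the cycling share averaged 60.5% ± 13.8 (SD, n = 8), with 72.7% in sample 1, 61.1% in sample 2, 71.1% in sample 3, 57.6% in sample 5, 70.8% in sample 6, 68.9% in sample 7, 48.4% in sample 8 and 33.3% in sample 9. Samples 8 and 9 were the lowest, with 31 cells from lung alone and 15 from blood alone. Samples 5 and 7 held at least 3 tumor DP cells in each tissue. In sample 5 the share was 66.7% in lung and 59.0% in blood, and in sample 7 it was 64.7% in lung and 81.8% in blood, so they went opposite ways (mean difference -4.71 points, exact sign-flip permutation p = 1, two-sided, with 0.5 the smallest possible). The DP cells of blood and CTC of blood could be set against each other in 5 samples, where the share was higher in DP in 3 and lower in 2. DP averaged 69.8% and CTC 70.9%, a mean difference of -1.12 ± 22.6 points (SD, n = 5, exact two-sided sign-flip permutation p = 0.938, smallest possible 0.0625), and a CTC share rested on 3 to 11 cells.

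The same threshold gave very different shares in the controls, each from 1 sample with no replicate check. The library labelled naive WBC had no tumor cell by the 5000 CPM rule, whereas all 24 PltLike, 24 Duplike, 18 CDP and 22 B16F10 cells met it, with median sums of the 4 melanocyte genes of 24617, 26550, 28967 and 29182 CPM. The libraries labelled PltLike, Duplike and CDP thus held melanocyte RNA at levels near those of B16F10, although their labels name naive mice. In PltLike 23 of 24 cells reached it (95.8%, exact interval 78.9 to 99.9) and in Duplike 22 of 24 (91.7%, 73.0 to 99.0). CDP reached it in 4 of 18 cells (22.2%, 6.41 to 47.6) and cultured B16F10 in 3 of 22 (13.6%, 2.91 to 34.9). The share in the library labelled B16F10 lay below that of each of the 8 samples with tumor cells. Among cells that were not tumor cells by the rule, it was reached by 62 of 188 DP cells (33.0%) and 8 of 46 WBC (17.4%) of tumor-bearing samples and by 1 of 21 naive WBC (4.76%).

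**Figure D1:**
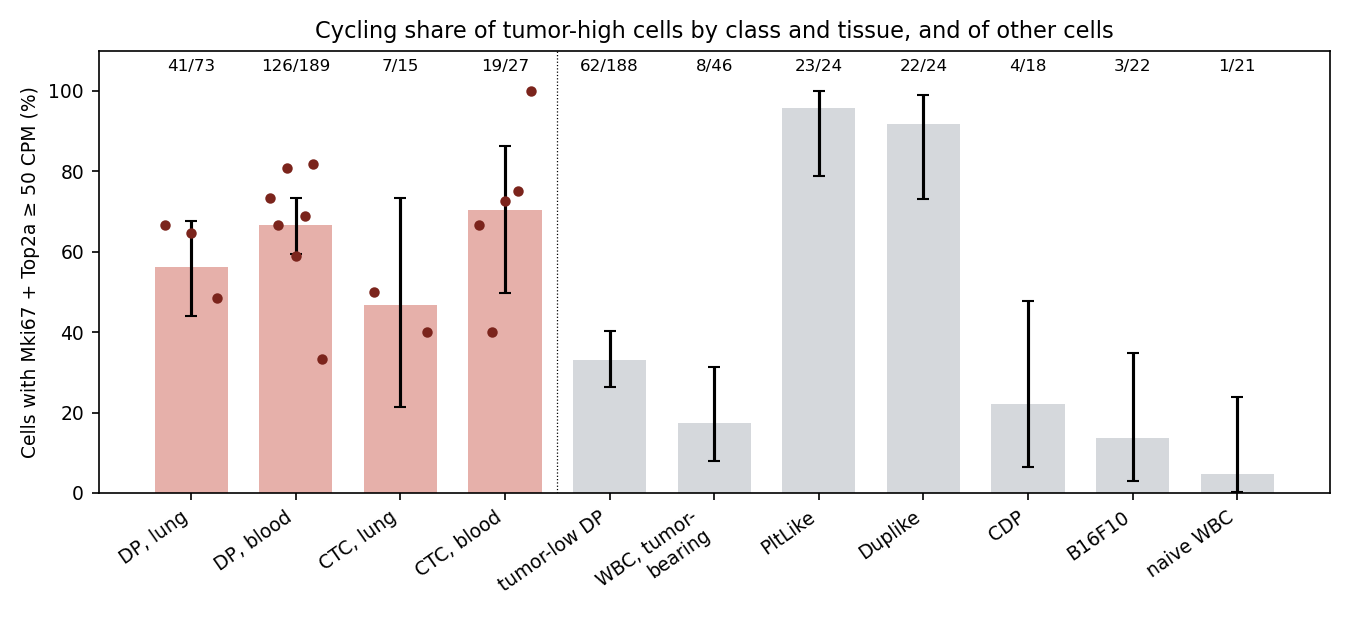
Percent of cells with a summed Mki67 and Top2a level of 50 CPM or more, for tumor cells by class and tissue (left of the dotted line) and for other cells and controls. Bars are all cells of a group with the exact 95% binomial interval, points are samples with at least 3 cells, and counts stand above the bars. The 4 groups of tumor cells lie between 46.7% and 70.4%, and the controls spread from 4.76% in naive WBC to 95.8% in PltLike.

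For gene expression, counts were summed over the cycling and over the non-cycling cells of each of the 8 samples, and the pairs were compared with edgeR's quasi-likelihood test with the sample as a block and Benjamini-Hochberg adjustment over all genes. A sum pooled DP and CTC cells of blood and lung, in parts that could differ between the groups. In sample 3 blood and lung gave 25 and 2 cycling cells, but 3 and 3 non-cycling cells. The sample block does not remove such differences. CPM values of single genes are TMM-scaled sums, and a log2 difference is the fitted cycling minus non-cycling difference, an average of within-sample ratios that can exceed the ratio of the group means where 1 non-cycling sum is high. Of 11375 genes tested, 457 passed at an adjusted p of 0.05 (4.02%), 319 higher (2.80%) and 138 lower (1.21%) in cycling cells. These counts include Mki67 and Top2a, whose calls the selection fixed, and without the 6 selecting genes 455 of 11369 were called, 317 higher. DESeq2 called 1666 genes (14.6%), and all 457 were among them. The sums held 5 to 46 cells and 154 to 1000 Mcounts (megacounts) in cycling cells, and 3 to 15 cells and 60.6 to 279 Mcounts in non-cycling cells. Since cells were split by cell-cycle genes, genes that go with these 2 in a cell had to differ, and a test over samples shows that the association repeated between samples.

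Depth, detected genes and the summed pan-leukocyte genes moved with the split. Cycling cells had more detected genes in 8 of 8 samples, on average 8777 against 8253 in non-cycling cells (mean difference 523.9 ± 236 genes, SD, exact two-sided sign-flip permutation p = 0.00781, the smallest possible). Their log10 total counts averaged 7.36 against 7.25 (difference 0.105 ± 0.102, higher in 7 of 8, exact permutation p = 0.0234). The 18 pan-leukocyte genes summed to 1076 ± 200 CPM in cycling sums and 1863 ± 1209 CPM in non-cycling sums (SD, n = 8), lower in cycling cells in 7 of 8 samples (exact permutation p = 0.0234), with the highest non-cycling sums in samples 9 (4153 CPM) and 2 (3405 CPM). In both groups this total stayed at 905 CPM or more, while 5 leukocyte markers with Ptprc fell to 0.890 CPM. How much of it came from leukocytes was not tested. The part of depth, detected genes, pan-leukocyte genes, tissue and class in the differences that follow was not tested, beyond the counts given with cells thinned or left out.

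Mitosis genes made up the largest group that rose. Of 87 mitosis genes 74 were higher and 0 lower in cycling cells, against 2.80% of all genes higher, with a median log2 difference of 5.29 against 0.12 over all genes. In 66 of the 87 every cycling sum lay above every non-cycling sum, which held for 2.10% of all genes. The count was 75 of 86 with cells thinned to 1000000 counts, 64 without cells with Ptprc, 61 in DP alone and 55 to 78 with a sample left out.

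As background, many promoters of mitosis genes are known for CCAAT boxes bound by the factor NF-Y or the cell-cycle homology element TTTGAA bound by the DREAM complex, and many replication genes for sites of E2F factors. Printed are the bases before the RefSeq start (GRCm38.p6), 5′ to 3′ on the gene's strand and ending where the GENCODE transcript begins if that comes first, of the mitotic kinase gene Cdk1 (chr10:69352939-69353162, minus strand), the spindle motor gene Kif11 (chr19:37376132-37376381, plus strand), the mitotic kinase gene Plk1 (chr7:122159185-122159434, plus strand) and the replication helicase gene Mcm5 (chr8:75109259-75109508, plus strand), chosen as genes that rose and together show each element. Capitals mark CCAAT (read as ATTGG on the other strand), the element TTTGAA (read as TTCAAA) and, as E2F letters, TTTCCCGC, TTTCGCGC, TTTGCCGC or TTTGGCGC on either strand.
Cdk1: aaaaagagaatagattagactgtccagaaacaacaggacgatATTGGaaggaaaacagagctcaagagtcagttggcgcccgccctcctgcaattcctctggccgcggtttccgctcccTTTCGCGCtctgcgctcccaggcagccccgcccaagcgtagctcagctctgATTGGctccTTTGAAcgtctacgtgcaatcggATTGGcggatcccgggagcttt
Kif11: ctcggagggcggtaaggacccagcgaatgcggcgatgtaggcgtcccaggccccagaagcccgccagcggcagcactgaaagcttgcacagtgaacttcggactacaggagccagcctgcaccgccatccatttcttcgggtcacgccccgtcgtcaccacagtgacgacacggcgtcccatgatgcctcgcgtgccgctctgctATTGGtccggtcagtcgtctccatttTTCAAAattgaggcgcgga
Plk1: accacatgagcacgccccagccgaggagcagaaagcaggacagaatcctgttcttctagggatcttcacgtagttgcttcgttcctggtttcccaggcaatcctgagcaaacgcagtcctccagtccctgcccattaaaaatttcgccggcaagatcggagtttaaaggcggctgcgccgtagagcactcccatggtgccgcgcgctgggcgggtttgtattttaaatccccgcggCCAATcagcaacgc
Mcm5: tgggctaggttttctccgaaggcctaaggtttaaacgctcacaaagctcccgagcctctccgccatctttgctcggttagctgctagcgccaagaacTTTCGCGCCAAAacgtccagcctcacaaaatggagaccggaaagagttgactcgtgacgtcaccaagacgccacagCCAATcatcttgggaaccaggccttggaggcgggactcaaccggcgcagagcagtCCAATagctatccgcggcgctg

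Cdk1 held CCAAT 3 times, TTTGAA 1 time and an E2F match, Kif11 held CCAAT and TTTGAA 1 time each, Plk1 held CCAAT 1 time and neither of the others, and Mcm5 held CCAAT 2 times and E2F letters on both strands that overlap. In windows of 250 bases before the start, CCAAT was in 71.4% of 70 windows of mitosis genes that rose (62 of 74 genes matched), 68.2% of 22 windows of replication genes that rose (16 of 21 matched) and 38.6% of 153 windows of genes that fell (109 of 138 matched). It was in 35.5% of the 11583 windows of tested genes. TTTGAA was in 32.9% of the mitosis windows, 13.6% of the replication windows, 7.19% of the windows of genes that fell and 10.7% of those of tested genes, and both elements together were in 27.1%, 13.6%, 0.654% and 4.14%. An E2F match was in 4.29% of mitosis windows, 22.7% of replication windows, 1.31% of windows of genes that fell and 3.30% of those of tested genes. These shares describe letters and say nothing of binding.

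Kif11, which encodes the motor that pushes spindle poles apart (chromosome 19, 37376403 to 37421859), had the smallest adjusted p among the mitosis genes named here. It was at 87.6 to 216 CPM in cycling sums (median 132) and 0.0916 to 0.287 CPM in non-cycling sums (median 0.205). No pair came near overlap, and the log2 difference was 9.61 ± 0.29 (SE, adjusted p = 2.05e-08, edgeR). The mitotic kinase gene Plk1 (chromosome 7, 122159439 to 122169873) was at 116 to 414 CPM in cycling sums (median 273) and 0.166 to 90.8 CPM in non-cycling sums (median 3.21), a difference of 7.27 ± 1.21 (adjusted p = 0.00834). Non-cycling sums of Plk1 thus ranged widely while still lying below all cycling ones.

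Cdk1, the kinase that starts mitosis (chromosome 10, 69335146 to 69352938), was at 214 to 598 CPM in cycling sums and 10.5 to 57.5 CPM in non-cycling sums, a log2 difference of 3.60 ± 0.33 (adjusted p = 0.000417). Its partner Ccnb1, cyclin B1 (chromosome 13, 100778650 to 100786570), was at 299 to 689 CPM in cycling sums and 0.550 to 267 CPM in non-cycling sums, with a median of 492 CPM against 10.1 CPM and a difference of 5.52 ± 0.91 (adjusted p = 0.00808). Cyclin A2, Ccna2, differed by 5.94 ± 1.12 (adjusted p = 0.0151, a call lost without sample 6). All 8 pairs of each gene were higher in cycling cells, with no overlap between the groups.

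Regulators of chromosome segregation rose with them. The Aurora kinase genes Aurka (6.21 ± 0.93, adjusted p = 0.0049) and Aurkb (6.12 ± 0.85, adjusted p = 0.00339) were higher by similar amounts on the log2 scale, and so were Cdc20, an activator of the anaphase-promoting complex (6.42 ± 1.06, adjusted p = 0.00807), and Birc5, the survivin subunit of the Aurora B complex (4.50 ± 0.71, adjusted p = 0.00653). Of these 4 genes, the groups overlapped for Cdc20 alone, where the highest non-cycling sum was 188 CPM and the lowest cycling sum 175 CPM. The kinetochore and spindle checkpoint kinase gene Ttk rose by 8.62 ± 1.28 (adjusted p = 0.00484) and was higher in 7 of 8 samples.

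The 12 genes with the largest rise among those of at least 20 CPM and one direction in all samples were Depdc1a, Fam83d, Kif11, Cep55, Sgo2a, Ska3, Kif23, Cdca2, Nusap1, Dlgap5, Melk and Trip13. Fam83d, which brings a casein kinase to the spindle, was at 26.9 to 156 CPM in cycling sums and 0.0221 to 0.187 CPM in non-cycling sums (log2 difference 9.69 ± 0.41, adjusted p = 3.23e-07). Cep55, which acts in abscission, was at 22.3 to 102 CPM in cycling sums and 0 to 0.144 CPM in non-cycling sums (9.36 ± 0.73, adjusted p = 0.000139). Sgo2a encodes a shugoshin that shields centromeric cohesin (9.32 ± 0.87), Ska3 a kinetochore coupler (8.66 ± 1.28), and Kif23 and Nusap1 a midzone motor and a spindle microtubule binder (8.45 ± 1.19 and 8.41 ± 0.98). For Depdc1a (10.03 ± 1.27), Ska3, Kif23, Cdca2 (8.43 ± 1.38), Nusap1, Dlgap5 (8.34 ± 1.08), Melk (8.31 ± 1.13) and Trip13 (8.30 ± 1.27) the highest non-cycling sum was 10.5 to 60.3 CPM, although their non-cycling medians were 0.0611 to 0.207 CPM. All 12 calls held with any 1 sample left out.

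**Figure D2:**
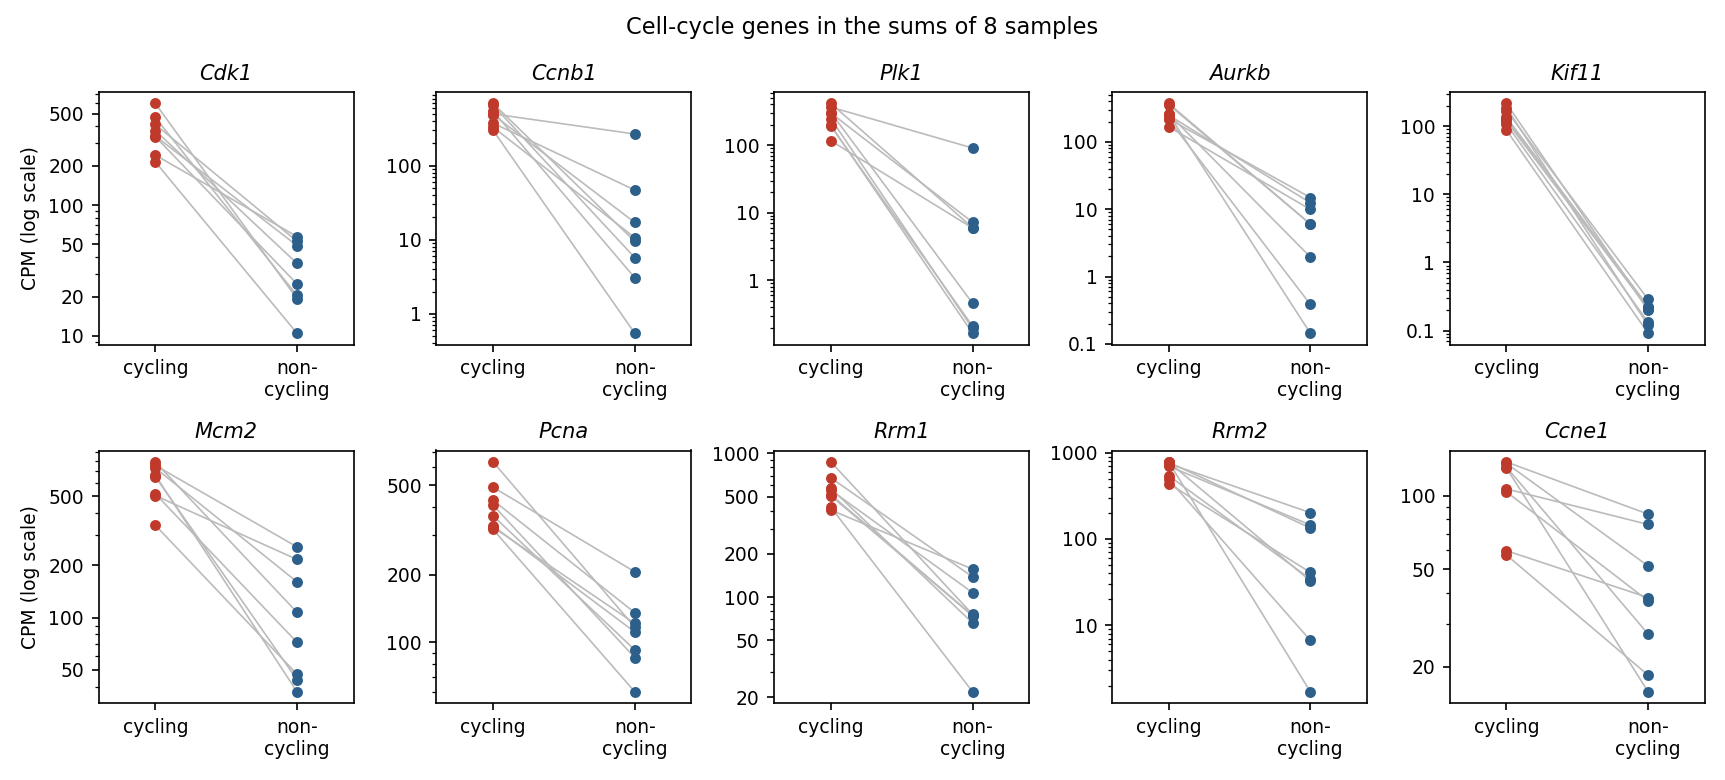
TMM-scaled CPM of 10 cell-cycle genes (log scale) in the cycling (left) and non-cycling (right) sums of 8 samples, with lines joining the sums of a sample. Kif11 falls to 0.0916 to 0.287 CPM in the non-cycling sums of all samples, whereas Ccnb1 and Plk1 each have 1 non-cycling sum far above the others, at 267 and 90.8 CPM.

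Part of the DNA replication genes rose. Of 52 members 21 were higher and 0 lower, against 2.80% of all genes higher. The list had a median log2 difference of 2.80, and all 52 had a positive estimate. Mcm2, a subunit of the replicative helicase (chromosome 6, 88883474 to 88898780), was at 341 to 790 CPM in cycling sums (median 656) and 37.4 to 256 CPM in non-cycling sums (median 89.7), a difference of 2.70 ± 0.33 (adjusted p = 0.00183). Pcna, the sliding clamp of the polymerases (chromosome 2, 132249162 to 132253314), was at 318 to 634 CPM and 60.3 to 206 CPM in the same order (1.87 ± 0.16, adjusted p = 0.000277). For both genes the groups did not overlap, and no non-cycling sum was near 0.

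Other replication genes differed by larger folds but spread more between samples. Mcm10, a replication initiation factor, was at 37.0 to 102 CPM in cycling sums and 0.135 to 42.5 CPM in non-cycling sums (6.38 ± 1.08, adjusted p = 0.00899). Mcm5 (4.51 ± 1.04, adjusted p = 0.0381), the flap nuclease gene Dna2 (5.95 ± 1.43, adjusted p = 0.0453) and the checkpoint gene Clspn (6.71 ± 1.61, adjusted p = 0.0441) passed narrowly, and each lost its call when any of 6 or 7 of the 8 samples was left out. DESeq2 called 48 of the 52 replication genes and 86 of 87 mitosis genes. In blood alone edgeR called 9 replication and 36 mitosis genes, and 12 replication genes passed without cells with Ptprc.

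Enzymes of nucleotide supply rose as well. Of 23 genes 8 were higher and 0 lower (median 1.36), against 2.80% of all genes higher. Rrm1, the large subunit of ribonucleotide reductase (chromosome 7, 102441695 to 102469771), was at 403 to 872 CPM in cycling sums and 21.9 to 157 CPM in non-cycling sums (2.81 ± 0.28, adjusted p = 0.000671). Its regulatory partner Rrm2 was at 439 to 779 CPM and 1.70 to 202 CPM (3.96 ± 0.73, adjusted p = 0.0142), so the small subunit spread more widely in non-cycling cells. The thymidylate genes Tyms (2.25 ± 0.31, adjusted p = 0.00342) and Tk1 (3.83 ± 0.78, adjusted p = 0.0211, lost without any of 5 samples) rose too, and 4 to 12 of the list passed with a sample left out.

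Repair, cohesion and histone genes rose in part. Of 30 genes of replication-coupled repair 8 were higher and 0 lower (median 4.54), against 2.80% of all genes higher. Among them were Fancd2 of the crosslink pathway (7.52 ± 1.01, adjusted p = 0.00287) and the recombination genes Rad54b (8.46 ± 1.5, adjusted p = 0.0112), Xrcc2 (8.22 ± 1.71, adjusted p = 0.0233) and Rad54l (7.50 ± 1.71, adjusted p = 0.0359), with 4 to 7 of the list passing when a sample was left out. Xrcc2 lost its call without any of 5 samples and Rad54l without any of 7. Among 19 condensin and cohesin genes 7 were higher and 0 lower, against 2.80% of all genes higher. The list was led by Esco2, the acetyltransferase that locks cohesin onto copied DNA (9.52 ± 1.22, adjusted p = 0.00228, 5.88 to 42.6 CPM in cycling sums and 0 to 0.0878 CPM in non-cycling sums), and 4 to 7 passed with a sample left out. The condensin genes Ncaph, Ncapg and Smc2 differed by 6.15 ± 1.28, 4.57 ± 0.85 and 4.44 ± 0.83, and Ncaph lost its call without any of 5 samples. Of 31 replication-dependent histone genes 4 were higher and 2 lower, against 2.80% and 1.21% of all genes. Examples were H4c4 (2.76 ± 0.46, adjusted p = 0.00845) and H2ac8 (3.83 ± 0.94), both higher, and H2bc4 (-1.36 ± 0.23, adjusted p = 0.0087) and H1f2 (-1.83 ± 0.43), both lower. With a sample left out 2 to 4 were higher and 1 to 2 lower, and H2ac8 and H1f2 each lost the call without any of 6 samples. Histone genes have near-identical copies that counting may split, most of their transcripts lack a poly(A) tail, and 31 of 56 passed the filter on low counts.

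Regulators of the entry into S phase passed in part. Of 25 cyclins, CDKs, pocket proteins and E2F genes DESeq2 called 10 higher and 1 lower. In edgeR 5 were higher and 1 lower (24% called, against 4.02% of all genes), and 1 to 4 were higher with a sample left out. Higher were Ccne1, cyclin E1 (108 ± 33.0 CPM in cycling and 43.6 ± 25.4 CPM in non-cycling sums, SD, n = 8, 1.44 ± 0.29, adjusted p = 0.0212, lost without samples 1, 3 or 8), and Tfdp1, the E2F partner (134 ± 21.9 and 66.8 ± 15 CPM in the same order, 1.02 ± 0.17, adjusted p = 0.008), and the repressor E2f7 (9.69 ± 2.15, adjusted p = 0.0322, lost without any of 5 samples). E2f2 also passed (8.39 ± 1.75, adjusted p = 0.0237, lost without any of 6 samples), but it averaged 8.18 ± 2.31 CPM in cycling and 5.30 ± 15 CPM in non-cycling sums and 1 non-cycling sum reached 42.3 CPM. Ccnd2, cyclin D2 (chromosome 6, 127125162 to 127152193), was the lower gene, at 382 to 899 CPM in cycling sums (median 565) and 855 to 1472 CPM in non-cycling sums (median 1141), a difference of -1.0 ± 0.14 (adjusted p = 0.00343, lower in 8 of 8). In the single cells behind these sums, pooled over samples, the Ccnd2 median was 497 CPM in cycling and 1081 CPM in non-cycling cells. Cells between the thresholds had a median of 824 CPM.

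Cyclin D1 gave no call. Ccnd1 was at 95.8 to 195 CPM in cycling sums and 39.2 to 325 CPM in non-cycling sums (-0.01 ± 0.30, adjusted p = 0.997), with 4 samples each way. Foxm1, a factor that activates mitosis genes, had 110 ± 27.5 CPM in cycling and 21.2 ± 25.1 CPM in non-cycling sums but did not pass (3.49 ± 0.93, adjusted p = 0.0676). E2f1 (2.65 ± 1.16, adjusted p = 0.295) and Ccne2 (2.14 ± 1.06, adjusted p = 0.37) did not pass either.

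Inhibitors of the cell cycle gave calls at a share near that of all genes. Of 28 CDK inhibitors and p53 target genes tested, 0 were higher and 1 was lower in edgeR (3.57% called, against 4.02% of all genes), with 7 at an unadjusted p under 0.05 and 1 higher and 6 lower in DESeq2. The gene was Trp53inp1, a stress-induced p53 target (-1.57 ± 0.31, adjusted p = 0.019, lost without samples 1, 2, 6, 7 or 8). Cdkn1a, which encodes p21, was at 104 to 392.4 CPM in cycling sums and 111 to 920 CPM in non-cycling sums (-0.13 ± 0.28, adjusted p = 0.915), and Cdkn1b, p27, at 28.2 to 68.6 and 43.3 to 213 CPM (-0.88 ± 0.34, adjusted p = 0.221, lower in 7 of 8). Trp53 itself differed by 0.23 ± 0.22 (adjusted p = 0.734). Cdkn2a and Cdkn1c had 0 counts in all 304 tumor cells.

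**Figure D3:**
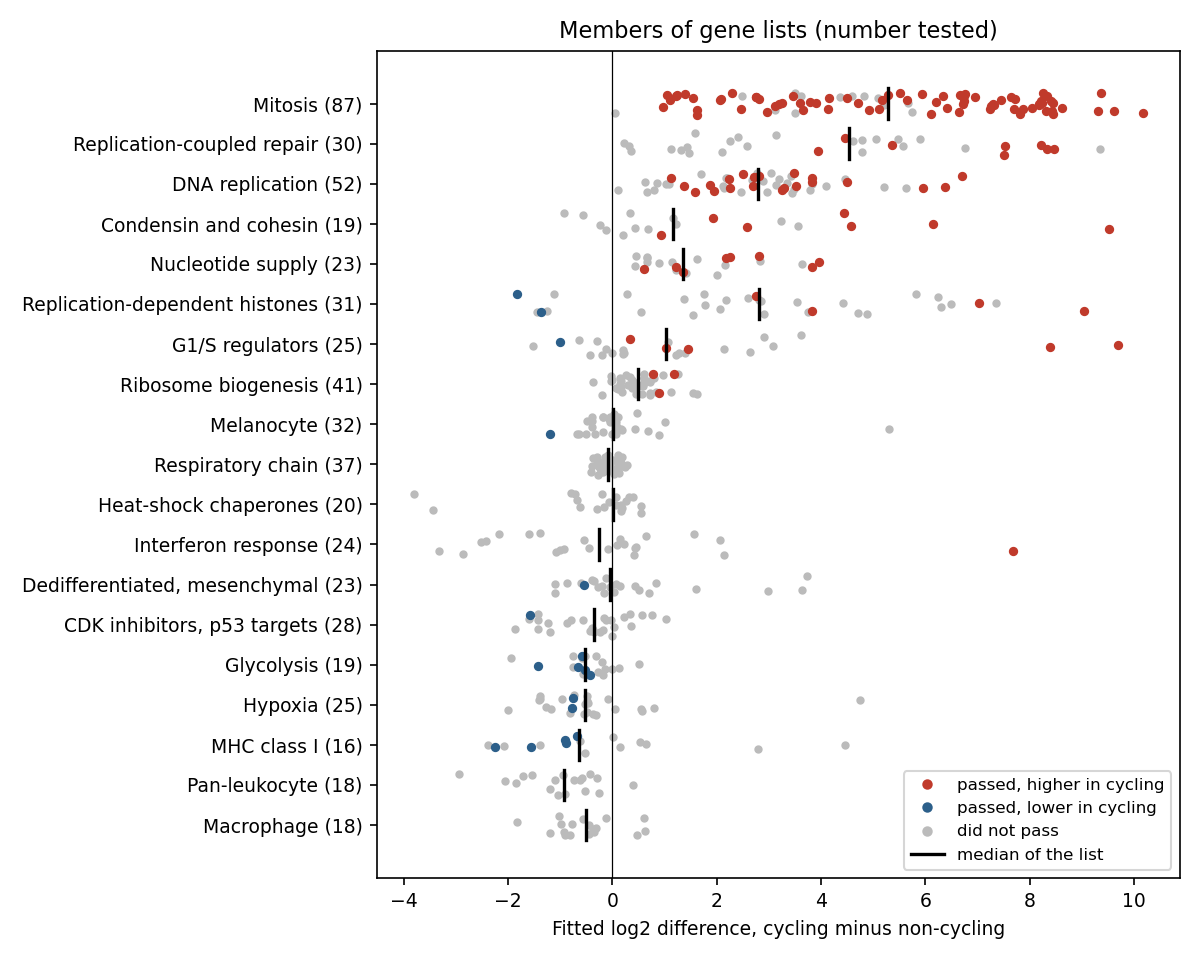
Fitted log2 differences (cycling minus non-cycling) of the tested members of 19 gene lists, with genes that passed in red (higher) or blue (lower) and the median of a list as a black bar. The medians reach 5.29 in mitosis, 4.54 in repair and 2.80 in replication, lie near 0 in melanocyte and respiratory genes, and are -0.52 in glycolysis and hypoxia.

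Genes lower in cycling cells changed by smaller folds. The 12 with the largest fall by the same rule were Pik3ip1, Tcp11l2, H2-T23, Pdcd4, Kdm5b, Ecm1, Nfil3, Ablim1, Mgarp, Dnajb9, Aldoc and Ahnak. Pik3ip1, an inhibitor of PI3 kinase (chromosome 11, 3330401 to 3342971), was at 5.68 to 17.7 CPM in cycling sums (median 9.43) and 28.4 to 186 CPM in non-cycling sums (median 57.5), with no overlap and a log2 difference of -2.69 ± 0.39 (adjusted p = 0.00432). Pdcd4, an inhibitor of translation initiation, differed by -1.83 ± 0.32 (adjusted p = 0.00976), and Kdm5b, a histone demethylase known as JARID1B, was at 5.85 to 51.3 CPM in cycling sums and 51.1 to 156 CPM in non-cycling sums (-1.79 ± 0.31, adjusted p = 0.00994). The matrix gene Ecm1 (-1.77 ± 0.25, adjusted p = 0.00328), the mitochondrial gene Mgarp (-1.48 ± 0.26, adjusted p = 0.0108) and the aldolase gene Aldoc also separated the groups fully. The others overlapped. H2-T23, Nfil3, Dnajb9 and Ahnak lost their calls when any of 4 to 6 of the samples was left out, and Tcp11l2 without sample 6.

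The glycolysis and hypoxia genes that passed in edgeR were lower. Of 19 glycolysis genes 5 were lower and 0 higher (median -0.52), against 1.21% of all genes lower. Aldoc (chromosome 11, 78322968 to 78327781) was at 80.0 to 181 CPM in cycling sums and 211 to 565 CPM in non-cycling sums (-1.43 ± 0.23, adjusted p = 0.00742). Aldoa, the abundant aldolase of the same step (chromosome 7, 126795234 to 126800751), averaged 6111 ± 963 CPM in cycling and 9636 ± 1668 CPM in non-cycling sums (SD, n = 8, -0.65 ± 0.09, adjusted p = 0.00284, lower in 8 of 8). Gpi1 (-0.58 ± 0.11, adjusted p = 0.0152, lost without sample 6) and Pgk1 (-0.52 ± 0.11, adjusted p = 0.0276, lost without any of 4 samples) followed. Of 25 hypoxia-induced genes 2 were lower and 0 higher, the mitochondrial genes Fam162a (-0.77 ± 0.15, adjusted p = 0.0149) and Higd1a (-0.75 ± 0.17, adjusted p = 0.0331, lost without any of 5 samples). DESeq2 called 1 hypoxia gene higher and 9 lower, and edgeR called 0 in blood alone and 0 where each sum held 5 cells or more. The 37 nuclear respiratory chain genes gave 0 calls (median -0.07, 7 at an unadjusted p under 0.05, 4 lower in DESeq2). In DP alone 1 glycolysis gene passed and in blood alone 2, and without cells with Ptprc 5 did. With a sample left out 2 to 5 glycolysis genes passed, 2 of them without sample 6.

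Class I genes of the major histocompatibility complex (MHC) were lower where they passed, and the summed pan-leukocyte genes were lower in 7 of 8 samples too. Of 16 genes 5 were lower and 0 higher (median -0.64), against 1.21% of all genes lower. Examples were H2-K1 (chromosome 17, 33996017 to 34000347), at 49.5 to 263 CPM in cycling sums and 77.6 to 739 CPM in non-cycling sums (-1.56 ± 0.32, adjusted p = 0.0232, lower in 7 of 8), H2-D1 (-0.91 ± 0.21, adjusted p = 0.0412), Tapbp of peptide loading (-0.90 ± 0.17, adjusted p = 0.0153) and the nonclassical gene H2-T23 (-2.24 ± 0.47, adjusted p = 0.0241). These genes share sequence with other class I genes, which counting may split. In blood alone 1 of the 16 passed and the median was 0.05, so the fall was not general. DP alone gave 2 calls (median -0.77) and lung alone 0 (median -1.11, 4 samples). Without cells with Ptprc 1 of the 16 passed, the median was -0.01 and the pan-leukocyte median 0.72, and 1 passed without sample 3, 6, 7 or 8. The pan-leukocyte list gave 0 calls of 18 in edgeR (median -0.93, 1 at an unadjusted p under 0.05, 2 lower in DESeq2), and Ptprc was at 0.893 to 47.4 CPM in cycling sums and 0 to 214 CPM in non-cycling sums (-0.62 ± 1.39, adjusted p = 0.914). Its 5 defining markers summed to 7.82 to 240 CPM in cycling and 0.890 to 1074 CPM in non-cycling sums, and the 5 macrophage markers to 5.97 to 392.2 and 2.36 to 2701 CPM in the same order, with no marker of either list at 0 in all sums. Macrophage genes (18), class II MHC genes (9), platelet genes (9), B- and T-cell genes (7), neutrophil genes (2) and erythroid genes (1) gave 0 calls in edgeR, with 0 at an unadjusted p under 0.05 in each, while DESeq2 called 1 platelet, 1 B- and T-cell and 1 neutrophil gene higher. No endothelial, epithelial or fibroblast gene of the list of 17 passed the filter on low counts.

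Pigment genes gave 1 call. Of 32 melanocyte and melanosome genes outside the rule 1 was lower and 0 higher (3.13% called, against 4.02% of all genes, median 0.01). The exception was S100b, a calcium-binding protein of melanocytic cells, at 53.8 to 132 CPM in cycling sums and 116 to 244 CPM in non-cycling sums (-1.19 ± 0.18, adjusted p = 0.00484, lower in 8 of 8). Mitf, the lineage factor, was at 122 to 271 CPM in cycling and 54.8 to 427 CPM in non-cycling sums (0.03 ± 0.24, adjusted p = 0.98), Tyr, the rate-limiting enzyme of melanin, differed by -0.18 ± 0.25 (adjusted p = 0.832) and Sox10 by -0.40 ± 0.12 (adjusted p = 0.114, lower in 7 of 8). The melanocyte list summed to 8981 to 17353 CPM in cycling sums (median 13651) and 9397 to 27013 CPM in non-cycling sums (median 18267). The list sum was higher in cycling cells in samples 2 and 9 and lower in the other samples, with no test run on it. Among 23 dedifferentiation and mesenchymal genes 1 passed (4.35% called, against 4.02% of all genes). It was Vim, vimentin, which was lower (-0.54 ± 0.13, adjusted p = 0.0394, lower in 7 of 8), a call lost without any of 6 of the samples.

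Ribosome biogenesis genes passed in part, and stress genes gave no call in edgeR. Of 41 ribosome biogenesis genes 3 were higher (7.32%, against 2.80% of all genes) and 0 lower (median 0.49, 37 with a positive estimate), namely Nhp2 of the box H/ACA particle (0.89 ± 0.17, adjusted p = 0.0151), the nucleolin gene Ncl (0.77 ± 0.15, adjusted p = 0.015) and Nolc1 (1.18 ± 0.26, adjusted p = 0.0317, lost without any of 5 samples). DESeq2 called 8 of the ribosome biogenesis genes higher and 1 lower, and edgeR called 0 where each sum held 5 cells or more. The 18 immediate-early genes and 20 heat-shock chaperone genes gave 0 calls in edgeR, with 5 and 6 at an unadjusted p under 0.05, and DESeq2 called 0 higher and 5 lower in the first list and 2 higher and 3 lower in the second. Among 24 interferon-response genes 1 passed in edgeR (4.17% called, against 4.02% of all genes). It was Stat2, higher in cycling cells (7.69 ± 1.83, adjusted p = 0.043, lost without any of 6 of the samples), at 3.60 to 54.3 CPM in cycling and 0 to 3.31 CPM in non-cycling sums.

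**Figure D4:**
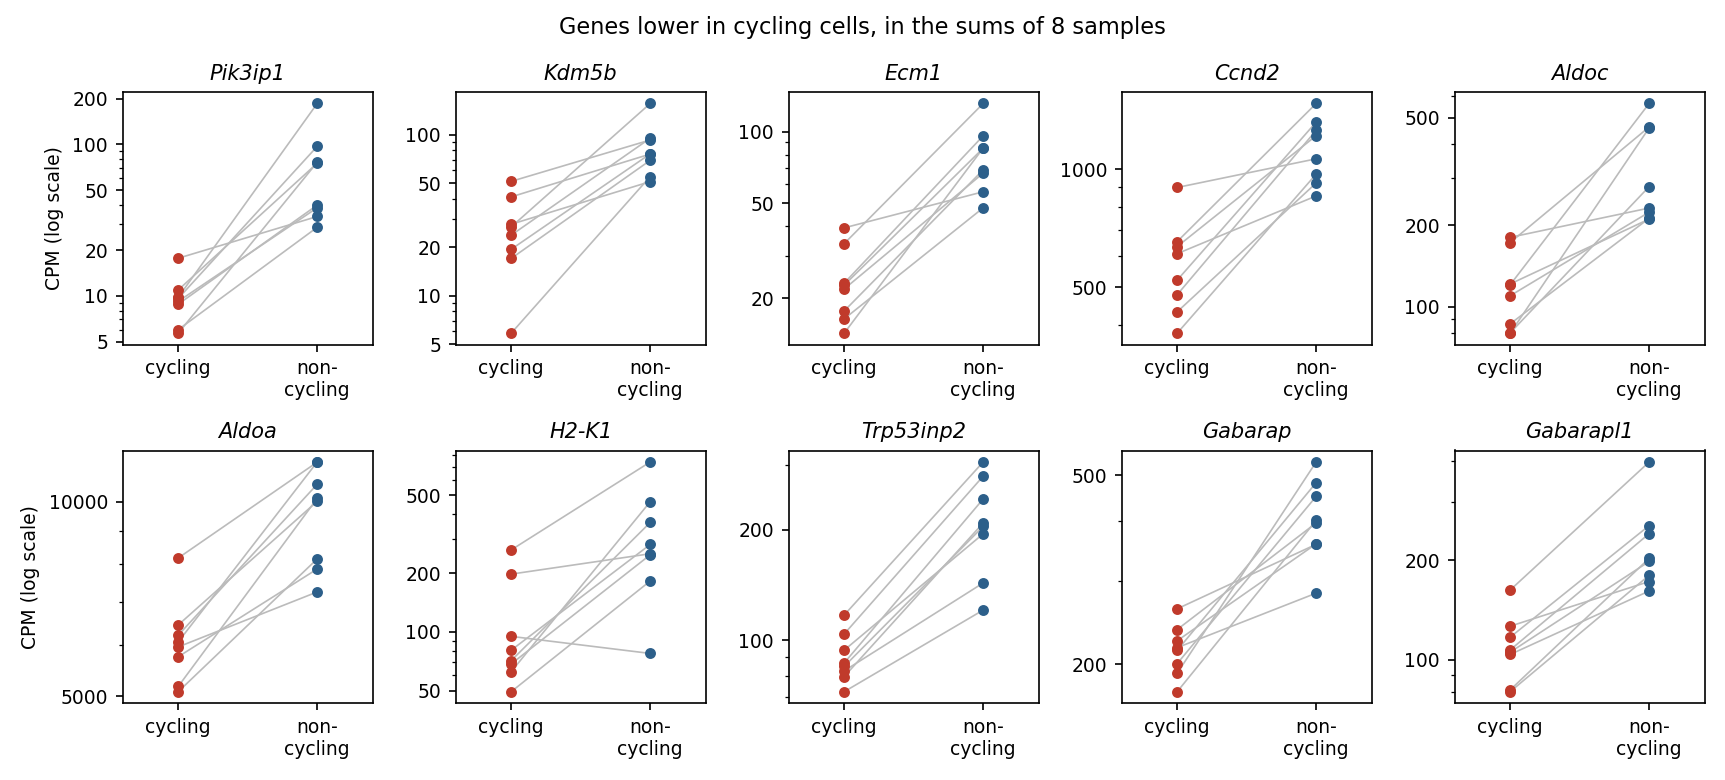
TMM-scaled CPM (log scale) of 10 genes that were lower in cycling cells, in the cycling (left) and non-cycling (right) sums of 8 samples, with lines joining the sums of a sample. Pik3ip1 separates the groups fully, at 5.68 to 17.7 CPM against 28.4 to 186 CPM, and H2-K1 is the gene with a sample that goes the other way.

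Whether the cycling effect differed between tissues or classes was tested as an interaction. For lung against blood (4 and 7 paired sums) 0 of 12488 genes passed in edgeR, with 344 at an unadjusted p under 0.05 (edgeR alone was used for interactions). For DP against CTC (8 and 2 paired sums) 1 of 13419 genes passed (0.00745%) and 751 had an unadjusted p under 0.05. It was Arap1, named because the count is 1. In DP it was lower in cycling than in non-cycling sums in 7 of 8 samples, whereas in CTC of samples 3 and 5 it was at 12 and 29.3 CPM in cycling and 0.0617 and 0.244 CPM in non-cycling cells (3 cells each), an interaction of -8.14 ± 0.90 (adjusted p = 0.00838). For Kif11 the effect differed by -0.58 ± 1.18 between lung and blood and -0.74 ± 0.60 between DP and CTC (adjusted p = 1 each). Taken alone, lung cells gave 2 calls of 10896 genes and CTC 0 of 10665 in edgeR, with 577 and 291 genes at an unadjusted p under 0.05, yet the mitosis list had a median of 6.12 in lung (4 samples) and 6.97 in CTC (2 samples).

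In single cells the replication and mitosis genes varied widely within the cycling group. The mitosis genes summed to a median of 16911 CPM in cycling cells, 4250 CPM in cells between and 3770 CPM in non-cycling cells, and the replication genes to 6121, 2151 and 1217 CPM. Across cycling cells the 2 sums had a Spearman correlation of 0.21 (n = 193), against 0.67 over all 304 cells, values that describe cells sharing libraries. In 27 cycling cells the replication sum was the larger. The lowest sums in a cycling cell were 513 CPM for replication and 2260 CPM for mitosis. Of the 70 non-cycling cells, 61 had a mitosis sum above the latter. A split at 5 CPM of Plk1, chosen after its values were seen, left 41 cycling cells with almost none (21.2%, in 8 samples), which had medians of 2944 CPM for replication and 4930 CPM for mitosis, against 7607 and 19647 CPM in the other 152. Plk1 is itself a mitosis gene, so the split in part fixed the gap in mitosis sums. These medians pool cells over samples and are a description with no test.

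Some non-cycling cells carried cell-cycle RNA in spite of the rule. Of the 70, 7 had a replication sum above the lowest quartile of cycling cells and 2 had such a mitosis sum. One DP cell of blood in sample 9 had 20820 CPM of mitosis genes, with Plk1 at 486 CPM and Ccnb1 at 1162 CPM, but Mki67 at 0.134 CPM and Top2a at 1.51 CPM in 29.7 Mcounts. One DP cell of blood in sample 2 had 13211 CPM of replication genes with 3.91 CPM of Mki67 and Top2a together.

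**Figure D5:**
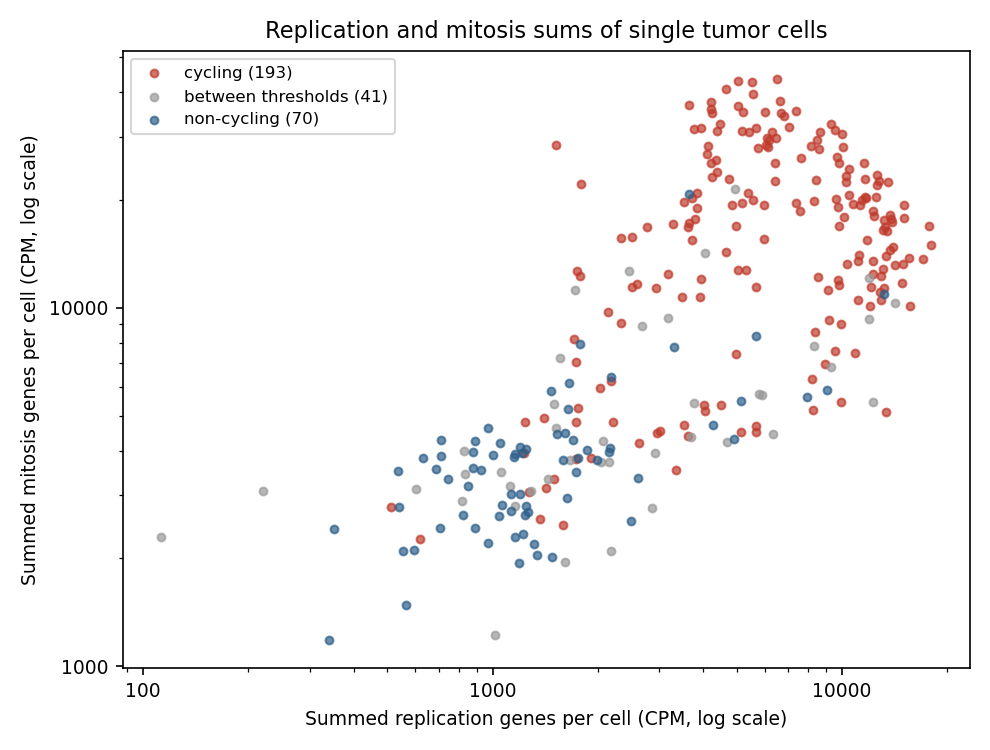
Summed CPM of the replication genes (x axis, log scale) and mitosis genes (y axis, log scale) in each of 304 tumor cells, coloured by group. Most cycling cells run from high replication with moderate mitosis sums to high mitosis sums, but some are low in both and lie among the non-cycling cells. The non-cycling cells gather near 1217 and 3770 CPM with a few among the cycling ones.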

How the data were processed

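RNA of sorted single cells was measured with Smart-seq2. The authors deposited whole-number counts per gene and cell, which are not normalized. Per the submitters' processing notes Trim Galore, HISAT2, SAMtools and featureCounts were used with the build mm10, while tool versions were not given. Of the nonzero counts in tumor cells 54.9% were even. Whether counting used strand is not given, so antisense pairs cannot be told apart. The tumor cells held 0.284 to 104 Mcounts (median 19.4) and 3712 to 11180 detected genes. The members, gene lists and tests were chosen with earlier results of these data known.

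Counts were summed per sample and group over at least 2 cells, and samples lacking either sum were left out. edgeR 4.0.16 (R 4.3.3) used its filter on low counts, TMM scaling, a robust quasi-likelihood fit and the sample as a block, at an adjusted p of 0.05. The block rests on both groups coming from the same sample, and batches within a sample, if any, were not modelled. Deviations of the 2 sums of a sample had a median correlation of 0.130 (0.00999 to 0.294, 8 pairs), against -0.00864 between sums of different samples. DESeq2 1.42.0, other scalings, filters, thresholds and cell selections, and leaving out each sample were alternatives, and the minimum of 7000 detected genes was chosen after seeing the data. On simulated data of 11375 genes with 200 changed, 13% of those changed by 1 and 58% of those changed by 3 on the log2 scale were recovered, and 2.74% of calls were false. That was a single run with counts drawn from the fitted dispersions. It did not model sums carried by a single cell, so its false share need not hold for the real calls.

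Shares have exact Clopper-Pearson intervals (SciPy 1.17.1) and within-sample differences an exact sign-flip permutation test. Named genes were the 12 with the largest difference per direction among protein-coding genes that passed, averaging 20 CPM or more and of one sign in all samples, up to 4 per list averaging 5 CPM or more, and a set of key genes. Promoter letters came from RefSeq (GRCm38.p6) and coordinates from GENCODE, which matched 10973 of the tested genes by symbol.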

Additional observations from a re-analysis of the deposited data

Results flagged for a closer look

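Of 101 sets of within-sample values that were checked, 14 held a sample far from the others, and chance flags about 1 in 20 such sets. The values are log2 differences, cycling minus non-cycling, with a pseudocount of 1 CPM. In sample 9 Kif23 differed by 1.30 (others 5.04 to 7.54), Cdca2 by 0.17 (4.58 to 6.19), Nusap1 by 2.09 (5.00 to 7.26), Dlgap5 by 1.21 (5.09 to 5.80), Rad54l by -3.57 (4.02 to 5.33) and Trp53 by -1.43 (0.09 to 0.78). In sample 2 Ska3 differed by 1.12 (4.61 to 5.78), Ttk by -0.17 (4.11 to 5.37) and E2f2 by -2.50 (2.3 to 3.60). In sample 7 Mcm10 differed by 0.80 (3.83 to 6.35) and Rad54b by 0.54 (3.88 to 5.76). In sample 5 Sgo2a differed by 5.91 (4.91 to 5.35), E2f7 by 1.11 (3.47 to 4.94) and S100b by -0.11 (-1.57 to -0.98).

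Single cells carried most of these non-cycling sums. In sample 9 a single cell of the 7 non-cycling ones, not the same cell for each gene, gave 99.8% of the counts of Kif23, 99.8% of those of Cdca2 and 99.7% of those of Nusap1 and of Dlgap5. In sample 2, 1 of 3 non-cycling cells gave 99.1% of the counts of Ska3 and 99.8% of those of Ttk.

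The cycling effect on Arap1 differed between classes by -8.14 ± 0.90 (log2, DP minus CTC, edgeR interaction, adjusted p = 0.00838, 8 and 2 paired sums), with 3 non-cycling cells in each CTC sum. Outside the tumor cells, 33.0% of the remaining DP cells (62 of 188, interval 26.3 to 40.2) and 17.4% of WBC (8 of 46, 7.82 to 31.4) reached the cycling threshold, against 4.76% of naive WBC (1 of 21).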

How the results depend on the processing

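The 457 calls (319 higher, 138 lower) became 1666 with DESeq2 (1131 and 535), 742 with groups from Mki67 alone (516 and 226), 189 where each sum held 5 cells or more (154 and 35), 276 without cells with Ptprc (203 and 73), 265 with sums per sample, tissue and class (46 lower), 278 in DP (53 lower), 155 in blood (128 and 27), 2 in lung (2 and 0) and 0 in CTC (0 and 0), and 82 were lower with no filter on low counts. Leaving out a sample gave 244 to 536 calls, 188 to 350 higher and 56 to 186 lower, with 291 without sample 3, 244 without sample 6, 271 without sample 7 and 272 without sample 8. Without the replicate block 464 genes passed, of which 362 were shared. Of the 84 named genes that passed, 45 kept their call where each sum held 5 cells or more, 39 did so in blood, and 61 to 77 with a sample left out. The DP and CTC interaction gave 12 calls from a mean of 20 CPM, 56 with no replicate block, 2 with sums of 1 cell and 1 to 13 with a sample left out, and could not be fitted without samples 3 or 5.

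The lung minus blood share was 1.96 points with tumor cells from 10000 CPM, -33.3 from 2000 CPM, -30.1 with at least 1 cell per share, -10.3 with cycling from 100 CPM and -17.1 to 7.69 with a sample left out. The DP minus CTC share was 1.20 from 2000 CPM, 17.4 with at least 5 cells and -8.07 to 6.38 with a sample left out. The difference in log10 total counts lost its call in blood (0.0815, exact permutation p = 0.281). The median of all genes was -0.0882 with no replicate block and -0.0517 with Mki67 alone. In CTC alone signs turned for Dnajb9 (0.78), Trp53inp1 (1.10), Trp53inp2 (0.0484), Cdkn1a (2.15), Mitf (-0.87) and Gabarapl2 (0.22). Genes that did not pass turned elsewhere, namely Ccnd1 (no filter 0.0397, 20 CPM mean 0.00202, DP 0.0148, thinned 0.15, cycling from 20 CPM 0.0622, tumor cells from 2000 CPM 0.0212, sample left out -0.23 to 0.14), E2f1 (lung -0.42, Mki67 alone -0.19), Cdkn1a (without Ptprc 0.34, sample left out -0.31 to 0.0367), Mitf (no block -0.18, blood -0.0874, lung -0.16, thinned -0.0161, from 20 CPM -0.0501, Mki67 alone -0.23, Top2a alone -0.0470, sample left out -0.13 to 0.21), Ptprc (without Ptprc cells 0.62, from 10000 CPM 1.12, sample left out -1.27 to 0.0441) and Gabarapl2 (no filter 0.0140, blood 0.0445, without Ptprc 0.10, sample left out -0.11 to 0.0487). The cause was not tested. Non-cycling sums of 3 cells limit samples 1 and 2.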

Other observations

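Genes of the ATG8 family, whose proteins coat autophagosomes, were lower in cycling cells in 4 of 5 members looked up, against 1.21% of all genes lower. The family was picked after values were seen, so its count is a description and no test against that share. Gabarap was at 175 to 262 CPM in cycling sums and 283 to 533 CPM in non-cycling sums, with no overlap (log2 difference -0.91 ± 0.14, edgeR adjusted p = 0.00559). Gabarapl1 (-1.01 ± 0.13, adjusted p = 0.0023), Map1lc3a (-1.03 ± 0.25, adjusted p = 0.0467) and Map1lc3b (-0.54 ± 0.09, adjusted p = 0.00852) were lower in 8 of 8 samples, Map1lc3a lost its call without any of 7 samples, and Gabarapl2 was lower in 4 of 8 (-0.03 ± 0.17, adjusted p = 0.968). Trp53inp2, which encodes a protein known to bind this family, averaged 90.2 ± 14.4 CPM in cycling and 213 ± 63.1 CPM in non-cycling sums (SD, n = 8), with no overlap (-1.19 ± 0.13, edgeR adjusted p = 0.001).

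Other abundant genes picked after their values were seen were lower too. The actin-capping gene Capg (-0.95 ± 0.12, edgeR adjusted p = 0.00222) and the membrane-binding annexin gene Anxa2 (-1.20 ± 0.19, adjusted p = 0.00653) had no overlap between groups, at 339 to 606 CPM in cycling sums and 723 to 1658 CPM in non-cycling sums for Anxa2. The galectin gene Lgals3 (-1.08 ± 0.15, adjusted p = 0.00332) and the translation helicase gene Eif4a2 (-1.10 ± 0.11, adjusted p = 0.000671) were lower in 8 of 8.

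The same threshold in the library labelled B16F10 split 3 cells from 16, and the mitosis genes had a median log2 difference of 0 between them, from 1 sample and with no test. Per cell their mitosis sum had a median of 3659 CPM, against 16786 CPM in Duplike and 19883 CPM in PltLike.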
